A study of Mus musculus with 7 samples.

Results

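The N-methyl-D-aspartate (NMDA) receptor subunit genes Grin1, Grin2a, Grin2b, Grin2c, Grin2d and Grin3a were followed in single-cell RNA counts of cultured mouse hippocampus. They are 6 of the 31053 genes counted, chosen by symbol, and each symbol had a single identifier. The cells came from newborn (P0) mouse hippocampi that were dissociated with trypsin and grown on coverslips coated with poly-D-lysine, with no treatment or genetic change named in the labels. Cultures were taken at day 1 in vitro (DIV1, 1 library), DIV3 (2 libraries), DIV5 (2 libraries) and DIV7 (2 libraries), all with the 10x Genomics 3′ v2 chemistry, which tags RNA molecules near their 3′ end with a unique molecular identifier (UMI). The labels do not say whether the 2 libraries of a day came from separate cultures or animals, so the p-values measure the spread between libraries, which may be technical.

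NMDA receptors are glutamate-gated channels that pass calcium when glutamate and a co-agonist, glycine or D-serine, are bound and the membrane is depolarised. A functional receptor contains GluN1, the product of Grin1, together with GluN2 subunits (GluN2A to GluN2D, from Grin2a to Grin2d), and some receptors hold GluN3A from Grin3a, which lowers calcium flow and magnesium block. In the maturing forebrain the share of GluN2A grows relative to GluN2B, and this exchange shortens the synaptic current.

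The RefSeq promoter table of build GRCm38.p6 held 3 of the 6 genes, and only these 3 could be shown. They are a subunit in every neuron class (Grin1), one concentrated in radial glia or astrocyte-like cells (Grin2c) and one highest in GABAergic neurons (Grin2d). Windows of Grin2a, Grin2b and Grin3a were not available. Each window of 300 bases runs from 250 bases before to 50 bases after the annotated start, is printed 5′ to 3′ on the gene's strand (minus for all 3) and has the GC box hexamer GGGCGG, or its reverse complement CCGCCC, in capitals.
Grin1, chr2:25319138-25319437: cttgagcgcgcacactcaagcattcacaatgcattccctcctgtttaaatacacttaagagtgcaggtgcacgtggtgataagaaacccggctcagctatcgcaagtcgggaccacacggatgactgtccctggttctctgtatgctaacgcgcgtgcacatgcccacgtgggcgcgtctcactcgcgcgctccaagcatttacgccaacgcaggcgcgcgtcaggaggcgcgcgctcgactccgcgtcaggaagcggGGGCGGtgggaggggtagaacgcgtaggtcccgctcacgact
Grin2c, chr11:115267194-115267493: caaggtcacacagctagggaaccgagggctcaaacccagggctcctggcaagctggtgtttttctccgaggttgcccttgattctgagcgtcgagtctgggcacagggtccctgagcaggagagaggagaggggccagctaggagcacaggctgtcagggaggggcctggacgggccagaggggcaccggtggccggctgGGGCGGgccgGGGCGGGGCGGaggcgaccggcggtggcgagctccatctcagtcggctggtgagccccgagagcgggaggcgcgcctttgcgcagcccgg
Grin2d, chr7:45866632-45866931: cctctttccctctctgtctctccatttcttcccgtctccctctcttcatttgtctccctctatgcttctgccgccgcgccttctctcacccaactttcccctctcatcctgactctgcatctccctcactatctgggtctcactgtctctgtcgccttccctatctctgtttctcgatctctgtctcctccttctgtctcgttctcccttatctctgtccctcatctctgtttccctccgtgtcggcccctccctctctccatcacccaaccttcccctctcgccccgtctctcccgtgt
The Grin1 window held 1 match and the Grin2c window held 3, of which 2 overlap by 1 base. The Grin2d window held none of these letters. Of all 32851 promoter windows of this length in the table, 35.7% held at least 1 match.

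Of 28846 barcodes, 26709 cells passed limits of 500 or more genes detected and mitochondrial UMIs no higher than 10%. Libraries held 36226566 to 114119537 UMIs, the deepest being DIV3 replicate 1, and 477 barcode sequences occurred in more than 1 library. Cells were clustered without the 6 subunit genes, so that subunit levels took no part in defining a class, and classes were called "-like" from marker genes. The classes still came from the same cells, so tests of a subunit between classes are chiefly descriptions. The neuron classes were dentate granule-like cells (1878 cells; Prox1, Neurod1), pyramidal-like cells (3023 cells; Neurod6, Grp), GABAergic neuron-like cells (472 cells; Gad1, Gad2, Sst, Npy) and Cajal-Retzius-like cells (337 cells; Reln). The dentate granule-like and pyramidal-like cells together formed the glutamatergic neuron-like class of 4901 cells. Most pyramidal-like cells of DIV1, of DIV3 replicate 1 and of the other libraries fell into 3 different clusters. Levels are given as CPM, the UMIs of a gene divided by all UMIs summed over a class in a library, on the usual CPM scale. The defining markers were present: Prox1 was at 368 to 546 CPM in dentate granule-like sums, and Neurod6 at 449 to 585 CPM in pyramidal-like sums. These levels are tag counts and are not scaled by transcript length.

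The subunits differed in which classes held them. Of all Grin1 UMIs, 62.4% lay in pyramidal-like cells, which were 11.3% of the cells, and for Grin2b the pyramidal-like share was 73.0%. Grin1 was present in all 4 neuron classes: its mean over libraries was 68.7 ± 12.7 CPM in GABAergic, 75.4 ± 41.4 CPM in dentate granule-like and 78.2 ± 28.3 CPM in pyramidal-like cells (SD, n = 7) and 66.1 ± 12.2 CPM in Cajal-Retzius-like cells (SD, n = 4), against pooled levels of 1.97 CPM in microglia-like and 0.779 CPM in fibroblast or meningeal-like cells. The per-library ranges of these 4 neuron classes, over all days, overlapped, so the means alone do not order them. Compared within libraries, Grin1 was higher in dentate granule-like than in pyramidal-like cells in 2 of 7 and lower in 5.

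Grin2b was the most abundant tag of the family in glutamatergic neurons. Its mean over libraries was 609 ± 205 CPM in pyramidal-like, 326 ± 97.2 CPM in dentate granule-like and 232 ± 54.7 CPM in GABAergic neuron-like cells (SD, n = 7), with a pooled level of 11.6 CPM in radial glia or astrocyte-like cells. Grin2a averaged 122 ± 75.3 CPM in dentate granule-like, 109 ± 36.5 CPM in GABAergic neuron-like and 86.8 ± 22.8 CPM in pyramidal-like cells (SD, n = 7), with a pooled level of 1.19 CPM in radial glia or astrocyte-like cells. The Grin2a ranges of these 3 classes, over libraries of all days, overlapped, so the means alone do not order them. Compared within libraries, Grin2a was higher in dentate granule-like than in pyramidal-like cells in 4 of 7 and lower in 3, an order that changed with day as given below.

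The remaining subunits differed in the class that held their highest level. With libraries pooled, Grin2c was highest in radial glia or astrocyte-like cells, at 28.9 CPM. By library it was at 1.75 and 24.9 CPM there at DIV5 and at 11.2 and 36.8 CPM at DIV7. The 2 higher values came from DIV5 replicate 2 and DIV7 replicate 2, the libraries that held most cells of that class (1256 and 1520 of 3089), so a day effect cannot be told apart from the library. In DIV5 replicate 1 the class was not the highest. The DIV5 libraries had 2.82 and 5.74 CPM in cycling cells and 1.79 and 2.95 CPM in ciliated cells. Neurons held almost none: 2 Grin2c UMIs were counted in GABAergic and 14 in glutamatergic neuron-like cells over all libraries, the glutamatergic ones lying mostly in DIV5 replicate 2 (7) and DIV7 replicate 2 (6). Grin2d was highest in GABAergic neuron-like cells, at 11.9 CPM from 54 UMIs.

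Grin3a did not follow the neuron classes. It was highest in oligodendrocyte lineage-like cells (Mbp, Olig1, Sox10), at 76.1 CPM in the DIV1 library, 98.3 and 114 CPM in the DIV3 libraries, 64.8 and 86.6 CPM in the DIV5 libraries and 68.9 CPM in DIV7 replicate 2. The other DIV7 library had only 11 such cells. All 6 of these values lay above every neuron sum. Grin1 in the same class was at 4.78 CPM pooled, and Grin2a and Grin2b at 2.39 and 6.78 CPM. Grin3a was also spread over other classes. Of its UMIs 25.1% lay in oligodendrocyte lineage-like, 16.3% in radial glia or astrocyte-like and 15.9% in pyramidal-like cells. Pooled levels were 20.3 CPM in radial glia or astrocyte-like cells (580 UMIs) and 13.8 CPM in pyramidal-like cells.

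Free RNA in droplets can place UMIs in cells that do not express a gene, and deeper cells show a UMI more often. Cells were also thinned to 3000 UMIs each, which evens out depth but does not remove free RNA. Shares in microglia-like cells are given for comparison. After thinning, Grin2b had a UMI in 66.8% of pyramidal-like cells and 1.99% of microglia-like cells, and before thinning in 86.4% and 5.403% at median depths of 12680 and 14111 UMIs. Grin3a had a UMI in 22.5% of thinned oligodendrocyte lineage-like cells and 0.820% of microglia-like cells, against 49.3% and 2.12% before thinning at median depths of 9776 and 14111 UMIs. Grin2c had a UMI in 8.29% of thinned radial glia or astrocyte-like cells and in 0.234% of microglia-like cells. Grin2d had a UMI in 2.86% of thinned GABAergic neuron-like cells, 0.492% of fibroblast or meningeal-like cells and 0.117% of microglia-like cells. Grin3a had a UMI in 0.0590% of thinned dentate granule-like cells, below its share in microglia-like cells. The shallower cells left out by thinning were 178 pyramidal-like, 183 dentate granule-like, 25 oligodendrocyte lineage-like, 157 radial glia or astrocyte-like, 90 microglia-like and 42 fibroblast or meningeal-like cells, and 88 of 472 GABAergic neuron-like cells, 69 of them at DIV1.

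**Figure D1:**
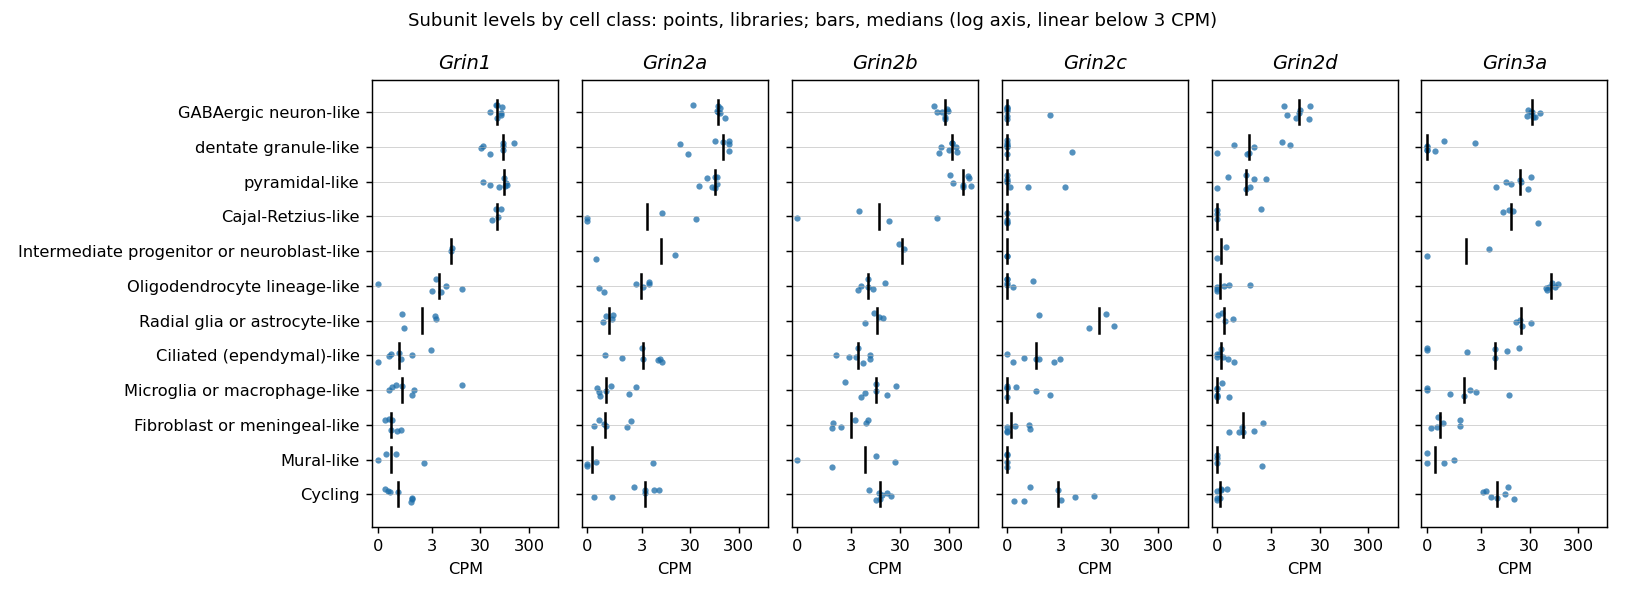
CPM of each subunit (horizontal log axis, linear below 3 CPM) in each cell class (down the page). Points are libraries with at least 20 cells of the class and bars are their medians; Grin1 is high in every neuron class, Grin2a and Grin2b in dentate granule-like, pyramidal-like and GABAergic neuron-like cells, Grin2c in radial glia or astrocyte-like cells and Grin3a in oligodendrocyte lineage-like cells.

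Grin1, the obligatory subunit, rose in dentate granule-like neurons between DIV3 and DIV7. It was at 31.7 CPM in the DIV1 library, 33.99 and 48.4 CPM in the DIV3 libraries, 86.1 and 89.8 CPM in the DIV5 libraries and 88.5 and 149 CPM in the DIV7 libraries. Both DIV7 values lay above both DIV3 values. The DIV7 against DIV3 difference was 1.52 ± 0.30 on the log2 scale (SE; edgeR quasi-likelihood test, Benjamini-Hochberg adjusted p = 0.00403). Of the 3 subunits with enough counts to be tested there, Grin1 was the 1 called, where 4.52% of the 10015 genes tested were called (453 genes, and 1072 with the replicate number as a block). The call was lost without DIV3 replicate 1 (edgeR adjusted p = 0.0773) and without DIV7 replicate 2 (edgeR adjusted p = 0.0555), a library with 36 dentate granule-like cells. In that last library the radial glia or astrocyte marker list summed to 1734 CPM in the dentate granule-like sum, against 581 to 899 CPM in the other 6 libraries. At most 2 of the 18 listed markers were at 0 in any library, and their part in the Grin1 result was not tested.

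In pyramidal-like neurons Grin1 was at 46.6 CPM in the DIV1 library, 33.7 and 72.6 CPM in the DIV3 libraries, 100 and 96.4 CPM in the DIV5 libraries and 107 and 90.7 CPM in the DIV7 libraries. All DIV5 and DIV7 values lay above the earlier ones. The difference between DIV7 and DIV3 was 0.87 ± 0.30 (SE, log2) and did not pass (edgeR adjusted p = 0.0872, and 0.0389 with the replicate number as a block). In all glutamatergic neuron-like cells it was 0.96 ± 0.30 (edgeR adjusted p = 0.0768, and 0.0162 with the block). GABAergic neuron-like cells ran from 46.6 CPM at DIV1 to 79.5 and 82.0 CPM at DIV7. No edgeR comparison of days was run in them, and 3 of their 7 sums rested on 31, 28 and 25 cells.

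Grin2b, the GluN2 subunit of the immature forebrain, was higher at DIV7 than at DIV3 in both kinds of glutamatergic neuron, but did not pass the test. It passed only with the replicate number as a block, and the labels give no pairing of these numbers. In pyramidal-like neurons it was at 320 CPM in the DIV1 library, 369 and 595 CPM in the DIV3 libraries, 739 and 591 CPM in the DIV5 libraries and 799 and 848 CPM in the DIV7 libraries. The 2 DIV7 values were the highest of the 7. The DIV7 against DIV3 difference was 0.73 ± 0.24 (SE, log2; edgeR adjusted p = 0.0681, and 0.0397 with the replicate block). In dentate granule-like neurons it was at 191 CPM in the DIV1 library, 214 and 352 CPM in the DIV3 libraries, 305 and 348 CPM in the DIV5 libraries and 424 and 447 CPM in the DIV7 libraries. The difference was 0.70 ± 0.23 (SE, log2; edgeR adjusted p = 0.0943, and 0.00699 with the replicate block). In all glutamatergic neuron-like cells the Grin2b difference was 0.76 ± 0.25 (edgeR adjusted p = 0.0906, and 0.0263 with the replicate block). GABAergic neuron-like cells had 294 CPM in the DIV1 library, 149 and 283 CPM in the DIV3 libraries, 173 and 253 CPM in the DIV5 libraries and 215 and 256 CPM in the DIV7 libraries, with no order by day.

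Grin2a, the GluN2 subunit of later development, separated the dentate granule-like from the pyramidal-like neurons over time. In dentate granule-like neurons it was at 26.9 CPM in the DIV1 library, 18.6 and 97.8 CPM in the DIV3 libraries, 145 and 185 CPM in the DIV5 libraries and 191 and 189 CPM in the DIV7 libraries. In pyramidal-like neurons the values were 67.0 CPM in the DIV1 library, 45.8 and 105 CPM in the DIV3 pair, 98.9 and 97.9 CPM in the DIV5 pair and 85.4 and 107 CPM in the DIV7 pair. Dentate granule-like cells were thus below pyramidal-like cells in the DIV1 and DIV3 libraries and above them in all 4 later libraries.

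The 2 DIV3 libraries differed in Grin2a in 3 neuron classes. DIV3 replicate 1 was the lower of the pair by far in dentate granule-like cells (18.6 against 97.8 CPM in replicate 2), in pyramidal-like cells (45.8 against 105 CPM) and in GABAergic neuron-like cells (33.8 against 153 CPM). The DIV7 against DIV3 difference of Grin2a did not pass the test, at 1.91 ± 0.94 in dentate granule-like cells (SE, log2; edgeR adjusted p = 0.411) and 0.32 ± 0.33 in pyramidal-like cells (edgeR adjusted p = 0.573). Without DIV3 replicate 2 the dentate granule-like difference was 3.43 and the pyramidal-like one 0.99. A fit with a single DIV3 library holds no spread between DIV3 libraries. Without DIV3 replicate 1 the pyramidal-like difference turned to -0.17.

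A fit with the library as a block compares both classes within each library. This test was added after the values had been seen. The change from DIV3 to DIV7 was larger in dentate granule-like than in pyramidal-like cells for Grin2a, by 1.79 ± 0.25 on the log2 scale (SE; edgeR adjusted p = 6.34e-10). The same difference was not called for Grin1, Grin2b or Grin2d, where 4.29% of 12305 genes were called, 2.95% of the tested genes being higher and 1.34% lower. Grin3a was not called either (edgeR adjusted p = 0.255); it had 0 UMIs in both DIV7 sums of dentate granule-like cells, so the size of its difference is not given. With each library left out in turn the Grin2a difference stayed between 1.22 and 2.41. The fit of all libraries left 3 residual degrees of freedom, and edgeR also draws on the spread of other genes. Its SE and p may thus understate the spread of Grin2a between libraries, which was wide at DIV3. Grin1 and Grin2b gave 0.36 ± 0.27 and -0.08 ± 0.19 in the same fit (edgeR adjusted p = 0.562 and 0.907).

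**Figure D2:**
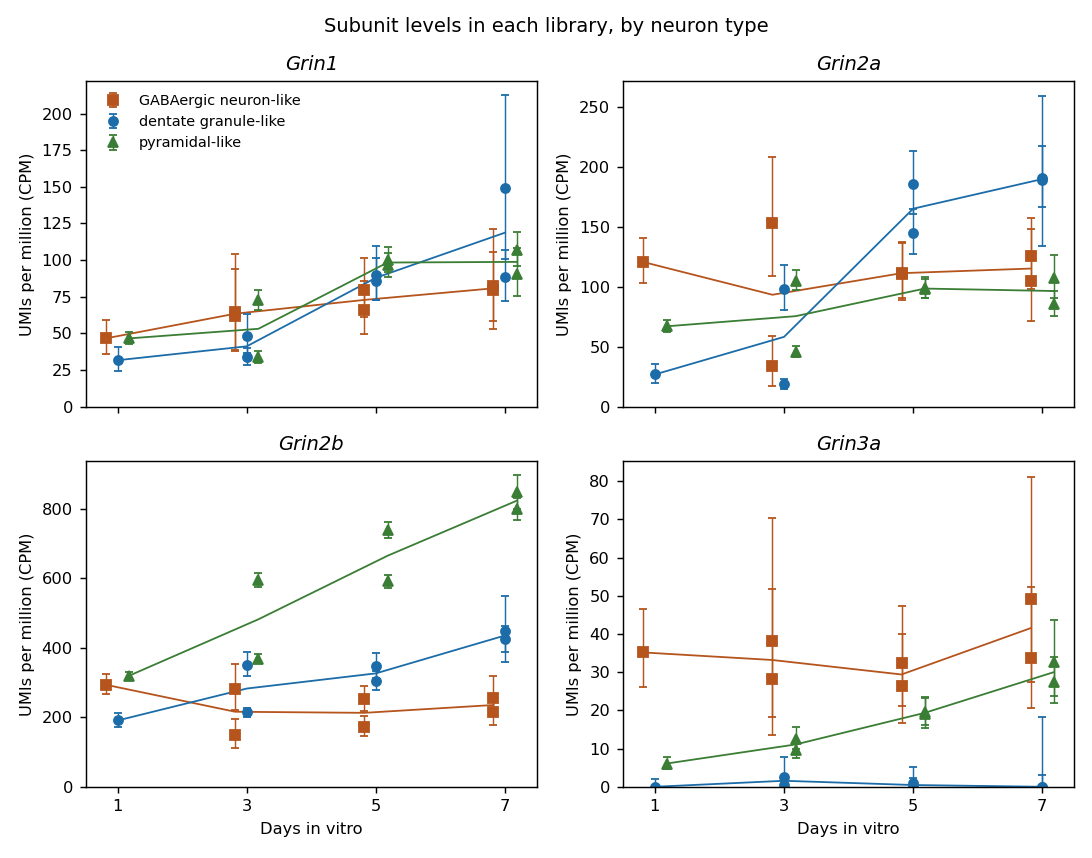
CPM of Grin1, Grin2a, Grin2b and Grin3a against days in vitro; points are libraries with 95% Poisson intervals, which cover counting error only, and lines join day means. In the DIV5 and DIV7 libraries Grin2a is higher in dentate granule-like than in pyramidal-like cells, while Grin2b is highest in pyramidal-like cells in every library.

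The ratio of Grin2a to Grin2b UMIs combines both. Since tags of different genes may be captured with different efficiency, the ratio is compared across days and classes and not read as a ratio of proteins. In dentate granule-like neurons it was 0.141 in the DIV1 library, 0.0869 and 0.278 in the DIV3 libraries, 0.475 and 0.532 in the DIV5 libraries and 0.449 and 0.422 in the DIV7 libraries. The 4 later libraries all exceeded the 3 earlier ones, with little between DIV5 and DIV7. In pyramidal-like neurons the ratio was 0.209 in the DIV1 library, 0.124 and 0.177 in the DIV3 pair, 0.134 and 0.166 in the DIV5 libraries and 0.107 and 0.127 in the DIV7 libraries. The highest value there was that of DIV1.

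Against day, the log2 ratio of dentate granule-like neurons had Pearson's r = 0.749 (exact permutation p = 0.0635, adjusted over 4 classes 0.127) and Spearman's rho = 0.624 (exact permutation p = 0.146, adjusted 0.292; n = 7 libraries). Pyramidal-like neurons had r = -0.768 (exact permutation p = 0.0571, adjusted 0.127) and rho = -0.679 (exact permutation p = 0.108, adjusted 0.292). Neither passed. Leaving out the 2 libraries farthest from the median day, in each of the possible choices, gave r of 0.586 to 0.742 in dentate granule-like and -0.875 to -0.327 in pyramidal-like neurons. Without DIV3 replicate 1 the pyramidal-like decline passed (r = -0.931, exact permutation p adjusted over 4 classes = 0.0444). All glutamatergic neuron-like cells together gave r = -0.194 (exact permutation p = 0.702, adjusted 0.702) and rho = -0.459 (exact permutation p = 0.308, adjusted 0.308), and the GABAergic neuron-like class gave r = 0.361 (exact permutation p = 0.448, adjusted 0.597) and rho = 0.477 (exact permutation p = 0.279, adjusted 0.308). The sign of the GABAergic, and of the glutamatergic, r depended on which 2 libraries were left out.

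Within a library, the log2 ratio of dentate granule-like minus that of pyramidal-like neurons was -0.56 in the DIV1 library, -0.51 and 0.66 in the DIV3 libraries, 1.83 and 1.68 in the DIV5 libraries and 2.07 and 1.74 in the DIV7 libraries. Its mean over the 7 libraries was 0.99 ± 1.13 (SD), higher in dentate granule-like cells in 5 of 7, and an exact two-sided sign permutation test did not separate it from 0 (p = 0.0781, adjusted over 2 comparisons 0.0781). Its relation to day, added after the values had been seen, had r = 0.895 (exact permutation p = 0.00952, adjusted over 5 relations 0.0476) and rho = 0.899 (exact permutation p = 0.0127, adjusted 0.0635), with r of 0.793 to 0.856 when the 2 most distant libraries by day were left out. With any 1 library left out, r stayed at 0.829 to 0.937 while the adjusted p was 0.0556 to 0.106.

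Markers of pyramidal neurons in the dentate granule-like sums also differed by day. In dentate granule-like sums the pyramidal marker list summed to 696 CPM in the DIV1 library, 799 and 978 CPM in the DIV3 pair, 1639 and 1684 CPM in the DIV5 pair and 2131 and 1858 CPM in the DIV7 pair, while its defining gene Neurod6 was at 53.0 to 122 CPM, against 449 to 585 CPM in pyramidal-like sums. Dentate granule-like cells with a Prox1 UMI and no Neurod6 UMI, 46.5% to 70.8% of the class by library, gave ratios of 0.105 in the DIV1 library, 0.0809 and 0.259 in the DIV3 libraries, 0.467 and 0.526 in the DIV5 libraries and 0.464 and 0.411 in the DIV7 libraries. Pyramidal-like cells with a Neurod6 UMI and no Prox1 UMI gave 0.207 in the DIV1 library, 0.125 and 0.182 in the DIV3 libraries, 0.133 and 0.158 in the DIV5 libraries and 0.106 and 0.135 in the DIV7 libraries. Both sets of ratios kept the pattern of the whole classes, and the Grin2a level of dentate granule-like cells at DIV7 was above that of pyramidal-like cells in the same libraries.

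**Figure D3:**
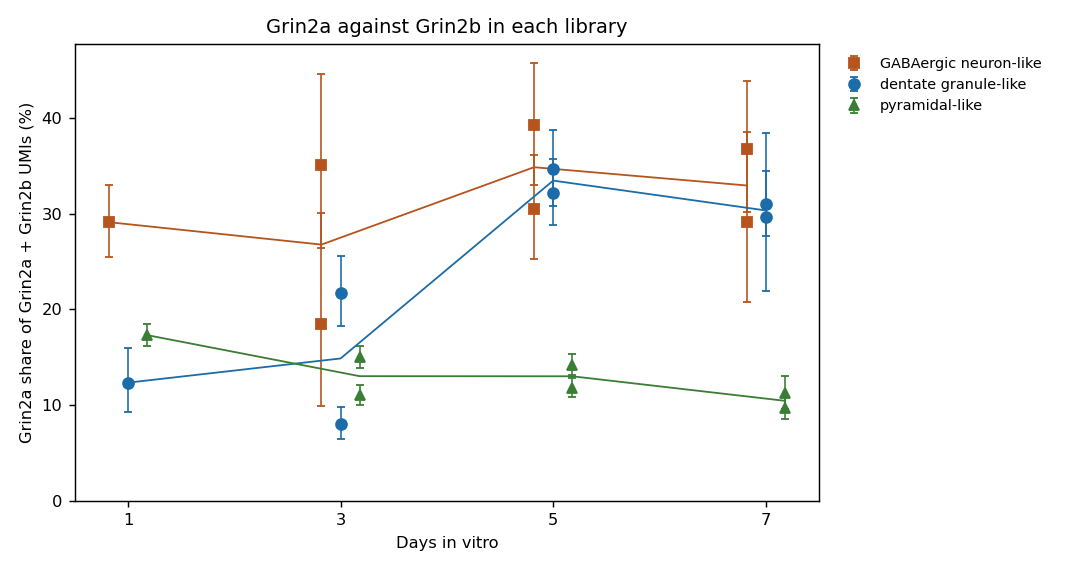
Grin2a as a percent of Grin2a plus Grin2b UMIs against days in vitro, with 95% exact binomial intervals for counting error; points are libraries and lines join day means. Dentate granule-like cells lie between 7.99% and 21.8% in the DIV1 and DIV3 libraries and between 29.7% and 34.7% in the DIV5 and DIV7 libraries, and pyramidal-like cells between 9.66% and 17.3%.

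GABAergic neurons, the inhibitory class, held a different mix of subunits from glutamatergic neurons. Of the 5 subunits tested, 3 were called (26% of 10714 genes tested were called). Grin2b was lower in GABAergic than in glutamatergic neuron-like cells in all 7 libraries, by -1.18 ± 0.20 on the log2 scale (SE; edgeR with the library as a block, adjusted p = 0.00210). Grin2d, a subunit known from interneurons, was at 6.46 CPM in the DIV1 library, 5.64 and 11.5 CPM in the DIV3 libraries, 18.02 and 18.7 CPM in the DIV5 libraries and 11.8 and 9.84 CPM in the DIV7 libraries of GABAergic neuron-like cells, against 0.530 to 3.81 CPM in glutamatergic ones. It was higher in 7 of 7 libraries, by 2.82 ± 0.38 (SE, log2; edgeR adjusted p = 2.07e-05), although its GABAergic sums held only 2 to 15 UMIs each.

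Grin3a was also higher in GABAergic neurons in 7 of 7 libraries, by 1.44 ± 0.24 (SE, log2; edgeR adjusted p = 0.000188). It was at 35.2 CPM in the DIV1 library, 28.2 and 38.2 CPM in the DIV3 libraries, 26.4 and 32.4 CPM in the DIV5 libraries and 33.8 and 49.2 CPM in the DIV7 libraries of GABAergic cells. Grin1 was -0.11 ± 0.13 (SE, log2; edgeR adjusted p = 0.605) and Grin2a 0.26 ± 0.13 (edgeR adjusted p = 0.145), neither called.

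The Grin2a to Grin2b ratio was higher in GABAergic neurons than in the pooled glutamatergic neuron-like class. It was 0.411 in the DIV1 library, 0.226 and 0.541 in the DIV3 libraries, 0.646 and 0.438 in the DIV5 libraries and 0.583 and 0.410 in the DIV7 libraries of GABAergic neuron-like cells, against 0.203 in the DIV1 library, 0.115 and 0.187 in the DIV3 pair, 0.173 and 0.201 in the DIV5 pair and 0.165 and 0.148 in the DIV7 pair of glutamatergic ones. The difference averaged 1.42 ± 0.37 on the log2 scale (SD), and was positive in 7 of 7 libraries. The exact two-sided sign permutation gave p = 0.0156, the smallest that 7 libraries allow, and 0.0313 adjusted over 2 comparisons. With any library left out the difference was 1.34 to 1.48 and the sign permutation p was 0.0313, the smallest that 6 libraries allow. It was no longer called, with an adjusted p of 0.0625 beside a p of 0.0625 to 0.156 in the other comparison. GABAergic sums held Neurod6 at 177 CPM in the DIV1 library, 70.5 and 38.2 CPM in the DIV3 libraries and 1.69 to 9.95 CPM in the DIV5 and DIV7 libraries. Cells with a Gad1 or Gad2 UMI and no Neurod6 UMI gave ratios of 0.519 in the DIV1 library, 0.289 and 0.810 in the DIV3 libraries, 0.636 and 0.423 in the DIV5 libraries and 0.576 and 0.410 in the DIV7 libraries. Dentate granule-like cells alone overlapped the whole GABAergic class at later days, with 0.475 and 0.532 at DIV5 and 0.449 and 0.422 at DIV7. Their ratio was above the GABAergic one in replicate 2 of both days and below it in every other library. GABAergic and dentate granule-like ratios were not tested against each other.

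Dentate granule-like and pyramidal-like neurons differed most in Grin3a. Dentate granule-like cells held 6 Grin3a UMIs in all, at 0.522 CPM, against 567 UMIs in pyramidal-like cells, at 13.8 CPM. Grin3a was lower in dentate granule-like cells in 7 of 7 libraries, by -4.64 ± 0.41 (SE, log2; edgeR adjusted p = 1.38e-08). Grin2b was lower in 7 of 7 libraries, by -0.88 ± 0.09 (edgeR adjusted p = 6.33e-08). These were 2 of 5 subunits tested, where 47.6% of 11518 genes were called. Over all days Grin1, Grin2a and Grin2d were not called (-0.18 ± 0.12, 0.14 ± 0.38 and 0.40 ± 0.46; edgeR adjusted p = 0.224, 0.802 and 0.497). Glutamatergic cells were also divided by marker UMIs alone. Those with a Prox1 UMI, with or without a Neurod6 UMI, were set against those with a Neurod6 UMI and no Prox1 UMI. Grin3a was then -0.73 and no longer called (edgeR adjusted p = 0.157), and Grin2b was -0.41 and still called (edgeR adjusted p = 0.00384). Inside the classes, dentate granule-like cells with a Prox1 UMI and no Neurod6 UMI had Grin3a at 0 to 3.12 CPM by library. Pyramidal-like cells with a Neurod6 UMI and no Prox1 UMI had 4.26 to 32.1 CPM.

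Within pyramidal-like neurons Grin3a rose between DIV3 and DIV7. It was at 6.08 CPM in the DIV1 library, 9.63 and 12.54 CPM in the DIV3 libraries, 19.1 and 19.6 CPM in the DIV5 libraries and 27.4 and 32.6 CPM in the DIV7 libraries, with no overlap between days. The DIV7 against DIV3 difference was 1.38 ± 0.28 (SE, log2; edgeR adjusted p = 0.0108), and Grin3a was the 1 subunit of 5 called, where 11.4% of 13061 genes were called (1494 genes, and 2518 with the replicate block). The call was lost without either DIV7 library (edgeR adjusted p = 0.0619 without replicate 1 and 0.0875 without replicate 2) and under a stricter cell filter (0.0923). In all glutamatergic neuron-like cells the difference was 1.45 ± 0.34 (edgeR adjusted p = 0.0290), again the 1 subunit of 5 called, beside 7.7% of 13291 genes (1024 genes, and 2800 with the replicate block). This call was lost without DIV3 replicate 1 (edgeR adjusted p = 0.112), without DIV7 replicate 1 (0.0948) and without DIV7 replicate 2 (0.209), and under the stricter filter (0.617). The pooled class mixes cells with and almost without Grin3a. Dentate granule-like cells were 616 of 1054 and 187 of 563 of its cells in the DIV3 libraries and 159 of 322 and 36 of 107 in the DIV7 libraries. The part of this mix in the pooled difference was not tested. In pyramidal-like sums the oligodendrocyte lineage marker list, whose class holds the most Grin3a, summed to 48.9 and 53.7 CPM in the DIV7 libraries and 70.0 and 70.2 CPM in the DIV3 libraries, but to 64.0 and 215 CPM in the DIV5 libraries. The radial glia or astrocyte list summed to 1228 and 2275 CPM in the DIV7 libraries against 1029 and 1180 CPM in the DIV3 libraries. Its class held Grin3a at 20.3 CPM pooled, and the part of these cells in the result was not tested.

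Between adjacent days the subunits did not pass the test. In glutamatergic neuron-like cells no subunit of 5 was called between DIV5 and DIV3 (0.489% of 13291 genes were called, 65 genes, and 630 with the replicate block), where Grin1 differed by 0.89 ± 0.29 and Grin3a by 0.85 ± 0.33 (SE, log2; edgeR adjusted p = 0.236 and 0.287). Between DIV7 and DIV5 edgeR called 0 genes (0%), with 683 at an unadjusted p under 0.05, while DESeq2 called 4 and the fit with the replicate block 20. The DIV5 against DIV3 differences depended on the libraries used. With 1 library left out they ran from 0.475 to 1.47 for Grin1 and from 0.0804 to 1.57 for Grin2a. For Grin2b they ran from 0.0879 to 0.883, and for Grin3a from 0.507 to 1.26.

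**Figure D4:**
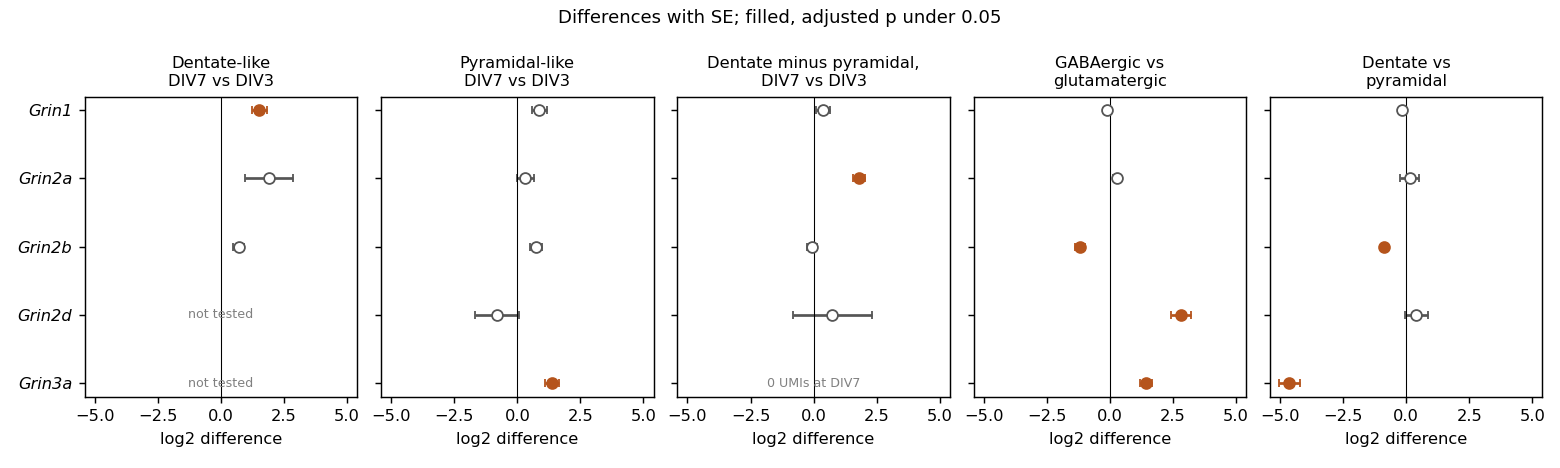
Log2 differences of 5 subunits (down the page) with their SE in 5 comparisons (panels); filled points have an edgeR adjusted p under 0.05. Grin2c had too few counts in neurons, and Grin3a had 0 UMIs in both DIV7 sums of dentate granule-like cells.

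Cajal-Retzius cells, transient Reln-producing neurons of the marginal zone, held Grin1 and Grin3a, and at DIV5 and DIV7 few UMIs of Grin2a and Grin2b. No Grin2c UMI and 6 Grin2d UMIs (1.51 CPM) were counted in the 4 libraries with at least 20 such cells. In the DIV1 library all 174 cells of the cluster gave 176 CPM of Grin2b and 40.3 CPM of Grin2a, but they also gave 147 CPM of the pyramidal gene Neurod6. The 117 of them with a Reln UMI and no Neurod6 UMI had 21.4 CPM of Grin2b (95% Poisson interval 13.7 to 31.8, counting error only) and 8.02 CPM of Grin2a, beside 25.3 CPM of Grin2b and 2.30 CPM of Grin2a in microglia-like cells of that library. They had 29.4 CPM of Grin1 and 63.3 CPM of Grin3a, beside 12.7 and 11.5 CPM in the microglia-like cells. The choice of these cells was made after the values had been seen, and at DIV1 their median depth was 9745 UMIs, against 10786.5 UMIs in all cells of the cluster.

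In later libraries the same selection, of 39 and 31 cells at DIV5, gave Grin1 at 69.3 and 78.9 CPM and Grin2b at 4.197 and 4.507 CPM, from 2 UMIs each. The 41 cells of DIV7 replicate 1 gave 31 Grin1 UMIs (61.5 CPM) and 0 Grin2b UMIs in 503709 UMIs, which allows up to 5.96 CPM. Grin3a was at 14.7 and 9.01 CPM in the DIV5 libraries and 11.9 CPM in DIV7 replicate 1, below its DIV1 level. The selected cells also differed in marker levels. Reln was at 1330 CPM at DIV1, 3656 and 3628 CPM at DIV5 and 3869 CPM in DIV7 replicate 1. Trp73 was at 55.3 CPM at DIV1, 204 and 198 CPM at DIV5 and 274 CPM in DIV7 replicate 1. The part of this difference in the Grin3a levels was not tested. DIV1 has 1 library and the DIV3 libraries and DIV7 replicate 2 had fewer than 20 such cells, so these levels are given without a test.

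**Figure D5:**
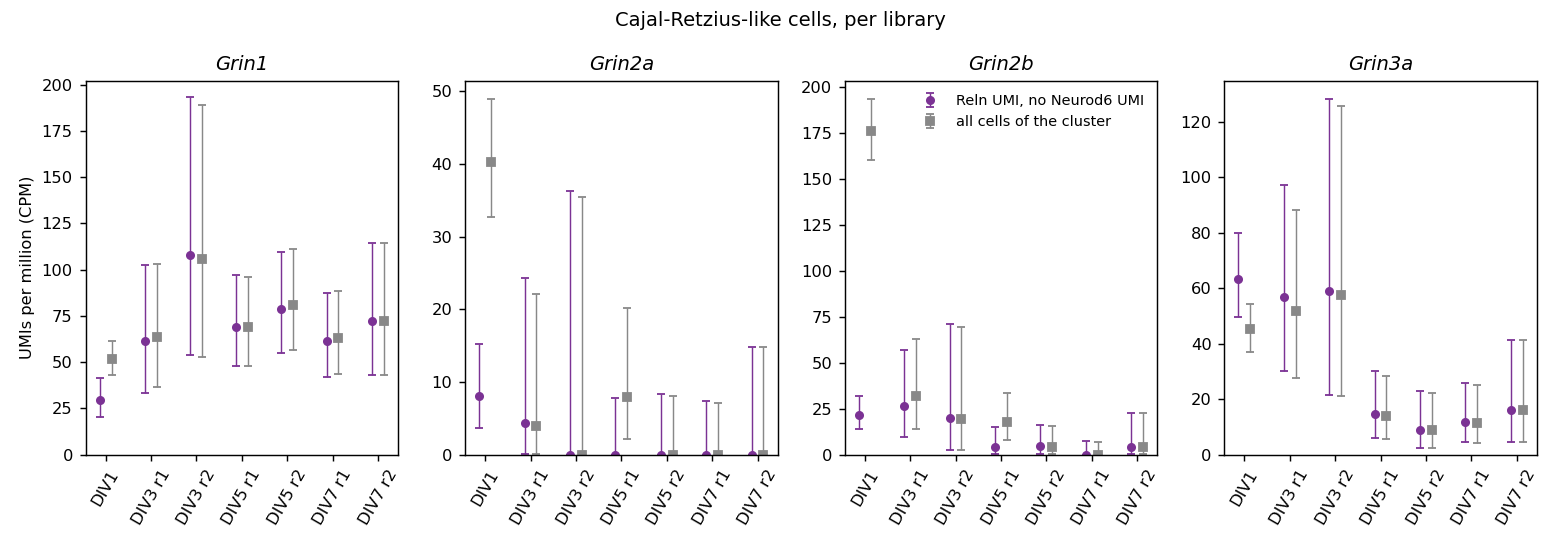
CPM of Grin1, Grin2a, Grin2b and Grin3a in Cajal-Retzius-like cells by library (r1 and r2, replicates), for cells with a Reln UMI and no Neurod6 UMI and for all cells of the cluster, with 95% Poisson intervals for counting error. At DIV1 the Grin2b value is 21.4 CPM in the selected cells and 176 CPM in all cells, while Grin1 is present in every library.

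Most of the receptor's partner genes did not pass the test between days, and more of those that passed rose than fell. The list was chosen with earlier results of these data known, so its counts beside the shares of all genes are descriptions. Of 71 listed scaffold, kinase, trafficking, co-agonist, signalling, surface and transcription genes, 54 were tested in dentate granule-like cells, and 14 rose and 0 fell between DIV3 and DIV7 (3.61% of all genes rose and 0.909% fell). The list's median difference was 0.25 on the log2 scale, beside -0.04 over all genes. In the same sums the pyramidal marker list stood at 2131 and 1858 CPM in the DIV7 libraries against 799 and 978 CPM in the DIV3 libraries, and the radial glia or astrocyte list at 882 and 1734 CPM against 639 and 623 CPM; their part in these counts was not tested. The 6 with the smallest p were the calcineurin subunit Ppp3ca (1.66 ± 0.20), the kinase Camk2a (3.00 ± 0.38), the transcription factor Mef2c (1.96 ± 0.26), Lin7a of the LIN-2/LIN-7/LIN-10 trafficking complex (2.72 ± 0.40), the scaffold Dlgap1 (1.63 ± 0.24) and the vesicle fusion ATPase Nsf (1.47 ± 0.25; all edgeR adjusted p of 0.000919 or less).

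In pyramidal-like cells 16 of 68 tested partners rose and 3 fell (6.52% and 4.92% of all genes), with a median of 0.35 beside -0.02 over all genes. By group, 5 of 9 scaffolds and 3 of 9 trafficking genes rose (medians 0.85 and 0.82), while 0 of 9 genes of co-agonist synthesis, breakdown and uptake rose and 2 fell (median -0.60), and 0 of 8 transcription regulators were called (median -0.16). Among those with the smallest p were Camk2a (3.00 ± 0.29), Nsf (1.86 ± 0.23), the metabotropic glutamate receptor Grm5 (1.79 ± 0.24), Ppp3ca (1.36 ± 0.21) and the neuronal nitric oxide synthase Nos1 (1.84 ± 0.31; all edgeR adjusted p of 0.00360 or less). The 3 that fell were Shmt1 and Shmt2, which make glycine from serine, and the casein kinase subunit Csnk2b. In all glutamatergic neuron-like cells 13 of 68 rose and 1 fell (5.06% and 2.64% of all genes). Between DIV5 and DIV3, Nsf (1.23 ± 0.20) and Camk2a (1.80 ± 0.32; SE, log2; edgeR adjusted p = 0.0272 and 0.0461) rose and none of the 68 fell (0.429% and 0.0602% of all genes). Camk2a and Mef2c are also on the neuron marker lists used to name clusters. The fits between classes held the partner genes too, and these were not kept out of the clustering, so their counts there are descriptions. The subunits were kept out, but the classes came from the same cells, so their p-values between classes are chiefly descriptions too. Of 62 partners, 8 were higher and 16 lower in GABAergic than in glutamatergic neuron-like cells (12.6% and 13.5% of all genes), and of 63 partners 8 were higher and 33 lower in dentate granule-like than in pyramidal-like cells (22.5% and 25.2% of all genes).

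The genes whose levels ran most like each subunit over 69 class and library sums of 13 classes, by Pearson's r of log2(CPM + 1), were Shank1, Golga7b and Mgat5b for Grin1 (r of 0.971 to 0.962), Npas4, Dlgap2 and Ralyl for Grin2a (0.936 to 0.915), and Tenm2, Camk4 and Pcdh8 for Grin2b (0.937 to 0.925). Grin2c ran most like Igfbp5, Car5b and Cldn10 (0.761 to 0.750), Grin2d like Spock3, Cacng3 and Rph3a (0.855 to 0.804), and Grin3a like B3gat2, Omg and Astn2 (0.837 to 0.763). Sums of 1 library share their depth and free RNA, and these values are descriptions.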

How the data were processed

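Unique molecular identifier (UMI) counts per gene and cell barcode were deposited by the authors for 7 libraries and were used as raw counts; Cell Ranger 4.0.0 and build mm9 are named per the submitters' processing notes. Barcodes with 500 or more genes detected and no more than 10% of UMIs from mitochondrial genes entered the clustering (scanpy 1.11.5, Leiden, resolution 1, 2000 variable genes without the 6 subunits, 30 components, 15 neighbours). Clusters were named from marker lists with score thresholds set after the clusters had been seen; 7 clusters of 7169 cells stayed unnamed. Doublets were not removed in the reported values: Scrublet called 178 barcodes (0.617%), and removing the 967 kept cells with the highest scores was an alternative.

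UMIs were summed per class and library with at least 20 cells and tested with edgeR 4.0.16 (quasi-likelihood, robust, TMM, filterByExpr; R 4.3.3), with a mean per day, or with the library as a block between classes; called means a Benjamini-Hochberg adjusted p under 0.05 over all genes tested. Ratios used counts plus 0.5. The scripts were tested on simulated data. DESeq2 1.42.0, other scalings, no count filter, stricter cell limits (1000 genes, 5% mitochondrial UMIs), the replicate number as a block and each library left out were tried. Same-numbered libraries deviated together in glutamatergic (r of 0.354, 0.165 and 0.292 between days) and dentate granule-like sums (0.340, 0.121 and 0.187), and less so in pyramidal-like sums (0.307, 0.0888 and 0.246); values with the number as a block are given beside the results they change, as a hint from the data and not the design.

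The members, partner genes and marker lists were chosen with earlier results of these data known. All 6 subunits are described; of the partner list, the 6 genes with the smallest p among those called are named, except 1 that is not reported here, and the 3 genes most like each subunit. The difference between neuron classes in the change with day, the difference of ratios against day and the cells selected by marker UMIs were added after the values had been seen. Intervals are 95% Poisson or exact binomial, and a count of 0 allows up to 3 counts.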

Additional observations from a re-analysis of the deposited data

Results flagged for a closer look

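The change of Grin2a between DIV3 and DIV7 differed between dentate granule-like and pyramidal-like neurons, by a test of the difference itself that kept the library as a block (1.79 ± 0.25 on the log2 scale, SE; edgeR adjusted p = 6.34e-10). Grin2a was at 191 and 189 CPM in the DIV7 libraries and at 18.6 and 97.8 CPM in the DIV3 libraries of dentate granule-like cells. In pyramidal-like cells it was at 85.4 and 107 CPM in the DIV7 libraries and at 45.8 and 105 CPM in the DIV3 libraries. The test was added after these values had been seen. Its SE and p also draw on the spread of other genes, and may understate that of Grin2a between libraries.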

How the results depend on the processing

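With 2 libraries a day and 3 residual degrees of freedom, the number of genes called between days depended on the processing, and the cause was not tested. Between DIV7 and DIV3 in glutamatergic neurons 1024 genes were called, with 2245 without a count filter, 2 under the stricter cell filter and 128 to 2996 with 1 library left out. Between DIV5 and DIV3 the 65 calls became 648 without a count filter, 208 with DESeq2, 7 with only the libraries of both days, 0 under the stricter filter and 7 to 1419 with 1 library left out. Between DIV7 and DIV5 the 0 calls became 77 without a count filter, 4 with DESeq2 and 0 to 2 with 1 library left out. Dentate granule-like cells had 453 calls, 164 with DESeq2, 139 under the stricter filter and 31 to 771 with 1 library left out. Pyramidal-like cells had 1494 calls, 2327 without a count filter, 95 under the stricter filter and 241 to 2968 with 1 library left out. Between classes, 2789 calls became 1372 under the stricter filter for GABAergic against glutamatergic neurons, and 5488 became 2890 with cells selected by Prox1 and Neurod6 for dentate granule-like against pyramidal-like neurons. The difference between the classes in the change with day had 528 calls, and 104 to 587 with 1 library left out.

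The replicate block gave 2800, 630 and 20 calls for DIV7 against DIV3, DIV5 against DIV3 and DIV7 against DIV5 in glutamatergic neurons, 1072 in dentate granule-like and 2518 in pyramidal-like neurons. In pyramidal-like neurons Grin1 and Grin2b passed with it (edgeR adjusted p = 0.0389 and 0.0397), as they did in all glutamatergic neurons, and Grin2b in dentate granule-like neurons; it changed no other call of a subunit.

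Of 264 subunit values with 1 library left out, 238 kept direction and side of the threshold, 7 lost a call, 14 gained one and 5 changed sign; of 246 under other settings these were 226, 3, 13 and 4. Sign changes were seen for Grin2d in glutamatergic neurons (0.23 for DIV7 against DIV3 over all neuron-like clusters, -0.18 to 0.99 for DIV5 against DIV3 with 1 library left out, the lowest without DIV5 replicate 1), for Grin1 in GABAergic against glutamatergic neurons (0.025, stricter filter), and for Grin2a in pyramidal-like neurons between DIV7 and DIV3 (-0.17 without DIV3 replicate 1 to 0.987 without DIV3 replicate 2). Dentate granule-like against pyramidal-like neurons gave Grin1 at 0.0093 in cells selected by Prox1 and Neurod6, and Grin2a at -0.33 under the stricter filter, -0.02 without DIV5 replicate 2 and -0.070 without DIV7 replicate 1 to 0.38 without DIV3 replicate 1. Grin2d in the difference of changes was -0.020 without DIV7 replicate 2 to 7.18 without DIV7 replicate 1, where its DIV7 sums held 0 or 1 UMI. No value with a changed sign was called. For the ratio against day, r in glutamatergic neurons was 0.345 under the stricter filter and -0.800 to 0.145 with 1 library left out, r in pyramidal-like neurons -0.931 to -0.567, and r of the difference of ratios 0.829 to 0.937. The mean GABAergic minus glutamatergic ratio difference was 1.34 to 1.48. Under the stricter filter the GABAergic ratio had too few libraries, and the paired ratio tests were not run.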
